A study of Mus musculus with 8 samples.

Results

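A single microRNA, miR-294, was put back into mouse embryonic stem cells that make no canonical microRNAs, and the RNA of these cells was set against that of the same knockout cells without it. The comparison uses 4 of the 8 libraries of the series: 2 of Dgcr8 knockout (Dgcr8 KO) control cells and 2 of the same knockout given a mimic of miR-294 by transfection, a synthetic duplex that delivers the mature microRNA. Of 49641 gene entries in the table, 12636 had a mean of at least 1 FPKM over these 4 libraries and were compared. FPKM counts fragments per kilobase of transcript, scaled to a library's mapped fragments, and a difference is given throughout as the difference of mean log2(FPKM + 1), which understates the change of low genes.

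All libraries are labelled as the V6.5 line, of the background 129/C57BL/6, and the cells grew in serum with LIF. Control and treated cells both carry the Dgcr8 knockout. Transfection, at 50 nM, took place 16 hours after plating, and the time of harvest is not in the labels. The Dgcr8 KO control columns are headed as mock and by a line name, ES1, that the labels do not repeat. No control mimic is named, so the comparison holds any effect of transfecting a small RNA together with that of miR-294. For that reason the seed classes and the gene lists are also given against 2 libraries of Dgcr8 KO cells transfected with siRNAs to the splicing regulators Mbnl1 and Mbnl2 (siMbnl1/2), at the same 50 nM, which received a different small RNA. Differences from siMbnl1/2 in turn hold any effect of those siRNAs together with that of miR-294. The last 2 libraries, of wild-type (WT) cells, entered the shared estimate of spread and are quoted for a few levels. Nothing in the labels says that the 2 libraries of a group came from separate cultures, so p-values measure the spread between these libraries, which may be technical.

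A microRNA guides the silencing complex to messenger RNAs by pairing its seed, bases 2 to 8 from the 5′ end, with a match that lies most often in the 3′ UTR, and the paired messages are translated less and decay faster. Dgcr8 is the RNA-binding partner of the nuclease Drosha, and cells without it cannot cut primary microRNA transcripts. miR-294 is made from the miR-290 cluster, the most abundant microRNA source of mouse embryonic stem cells. The family is known for speeding the G1 to S transition by lowering inhibitors of the cyclin E and Cdk2 kinase, which gave these microRNAs the name ESCC, for embryonic stem cell-specific cell cycle regulating.

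The sequences of the family show which part of miR-294 is shared, and are given 5′ to 3′ from RefSeq (GRCm38.p6), with the seed in capitals. The labels name no arm of miR-294. Its 3p arm, which carries the family seed, is encoded on chromosome 7 at chr7:3220691-3220712 on the plus strand. The first 5 names below share its seed.
miR-294-3p: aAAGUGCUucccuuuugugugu
miR-291a-3p: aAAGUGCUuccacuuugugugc
miR-295-3p: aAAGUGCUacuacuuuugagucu
miR-302b-3p: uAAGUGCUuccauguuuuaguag
miR-302d-3p: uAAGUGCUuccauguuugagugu
miR-290a-3p: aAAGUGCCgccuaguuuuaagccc
miR-17-5p: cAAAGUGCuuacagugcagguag
miR-93-5p: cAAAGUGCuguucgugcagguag
let-7a-5p: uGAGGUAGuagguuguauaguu
miR-290a-3p differs from the first group in the last seed base. In miR-17-5p and miR-93-5p the same 6 bases, AAGUGC, start at base 3 and not at base 2. let-7a-5p, a microRNA of differentiated cells, has an unrelated seed and was used as a comparison for the counts of matches below.

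Matches to the miR-294 seed were searched in the longest 3′ UTR of each gene in GENCODE M21 (mm10), on the sense strand. The words were AGCACTTA (8mer), AGCACTT (7mer-m8), GCACTTA (7mer-A1) and GCACTT (6mer), each gene being classed by the longest word it holds. The first 8mer of the 10 genes with such a word that fell most is shown with 10 bases on either side, the match in capitals.
Irf2 (chr8:46846664-46846671, plus strand): cttatcttgaAGCACTTAcaataggcct
Erap1 (chr13:74691633-74691640, plus strand): aactcataatAGCACTTActgaaaataa
Oasl2 (chr5:114911522-114911529, plus strand): cctttatctcAGCACTTAgagaatttct
Rrm2b (chr15:37926864-37926871, minus strand): ttttgtcataAGCACTTAagatggcatt
Lefty1 (chr1:180938213-180938220, plus strand): ctgtatgcgaAGCACTTAcatgtataga
Lamp2 (chrX:38420725-38420732, minus strand): tgactgctacAGCACTTActaatttggc
Lefty2 (chr1:180897917-180897924, plus strand): acccagtttaAGCACTTAcatgggtaaa
Syde1 (chr10:78584795-78584802, minus strand): tgaaaaactgAGCACTTAactcctcccc
Cd109 (chr9:78716118-78716125, plus strand): cttttttgtaAGCACTTAaagaaatatt
Zfp367 (chr13:64133615-64133622, minus strand): tttaacttggAGCACTTAtaagtatgat
Another 3 sites were chosen after their values were seen, because the genes are a cell cycle inhibitor, a Hippo kinase and one of the proteins the study is about. Mbnl2 holds a 7mer-m8 only.
Cdkn1a (chr17:29100500-29100507, plus strand): tgggtgtcaaAGCACTTAgtgggtctga
Lats2 (chr14:57691086-57691093, minus strand): gtatggaaagAGCACTTAttttgtggat
Mbnl2 (chr14:120431492-120431498, plus strand): aggctataacAGCACTTcacagaacta
A match is a description of these letters and not a measured binding site.

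The number of reads behind a value is unknown, since counts cannot be recovered from these values. Between 12386 and 12591 genes per library reached 1 FPKM in the 4 libraries. The Dgcr8 KO pair varied more than the miR-294 pair: the median SD within a group over genes was 0.10 in Dgcr8 KO and 0.05 with miR-294 on the log2 scale. It was largest in siMbnl1/2, at 0.12, and the fit used a shared estimate of spread for all groups. Mitochondrially encoded genes held 2.63% and 3.53% of the summed FPKM in Dgcr8 KO and 2.26% and 2.38% with miR-294, and the part of this difference in the results was not tested. Markers of pluripotent stem cells summed to between 5297 and 6192 FPKM in the 4 libraries, with 9 of 10 tested. Fibroblast markers, which feeder cells would bring, summed to between 10.8 and 15.1 FPKM over 17 genes, of which 13 were below the level tested, with Postn at 0 in all 4. In bulk RNA, fewer cells of a type and less RNA per cell cannot be told apart.

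With miR-294, 2933 genes were higher (23.2% of those tested) and 3728 were lower (29.5%) at an adjusted p under 0.05 in limma, 52.7% of the genes together. Both libraries of one group lay above both of the other for 35.1% of genes in the direction of higher and for 43.7% in that of lower, so an absence of overlap alone says little here. Larger changes went mostly down: 661 genes (5.23%) were called and at least 2-fold lower, against 290 (2.3%) at least 2-fold higher. The median over all genes was -0.06, and -0.01 after median-of-ratios scaling or 0.02 after quantile normalization. With these scalings the calls were 3428 higher and 3401 lower, and 3299 higher and 3140 lower, so the excess of decreases in the count of all calls depends on the scaling. Among changes of at least 2-fold the excess of decreases remained but was smaller. These were 587 lower and 343 higher after median-of-ratios scaling, and 523 lower and 399 higher after quantile normalization.

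**Figure D1:**
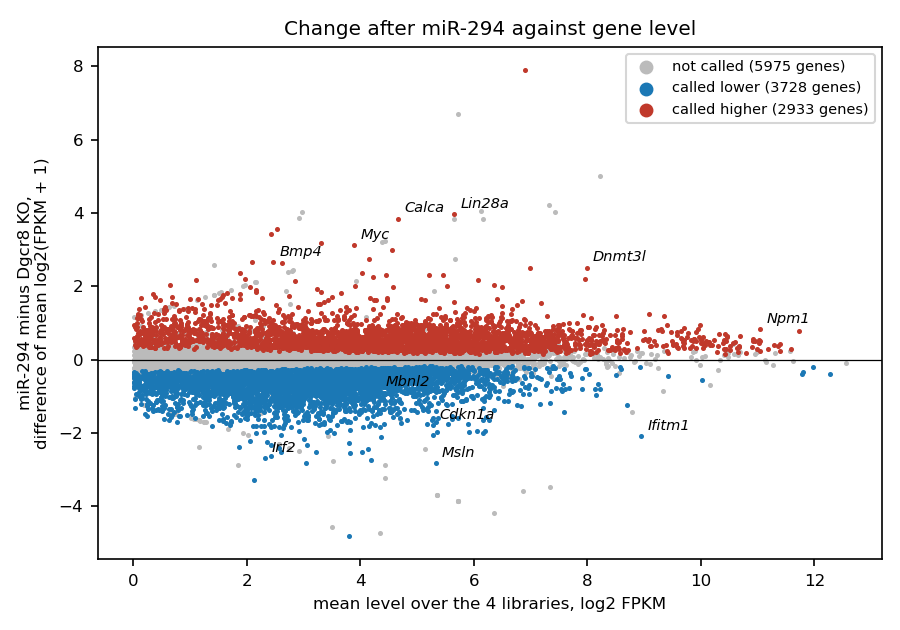
Each point is 1 of the 12636 genes, with its mean level over the 4 libraries (log2 FPKM) on the horizontal axis and the difference of mean log2(FPKM + 1), miR-294 minus Dgcr8 KO, on the vertical axis; blue genes were called lower (3728), red higher (2933). Lin28a, Calca and Myc stand at the top among the labelled genes and Msln and Irf2 at the bottom, while Ifitm1 fell from a high level.

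The largest increases and decreases named here were taken among called genes without overlap of the groups. Predicted genes, clone names, small RNAs and pseudogenes were left out. Over all genes tested, differences ran from -4.80 to 7.89, beyond those of the genes named. The largest increases chosen in this way included regulators of growth and of the early embryo. Lin28a (chr4:134003330-134018841, minus strand), an RNA-binding protein that blocks the making of let-7, was at 4.73 and 5.52 FPKM in Dgcr8 KO and 94.1 and 96.3 FPKM with miR-294. Its groups were far apart (difference 3.98, SE 0.11, adjusted p = 4.7e-06), and WT cells held 106 and 112 FPKM. Myc (chr15:61985391-61990374, plus strand), a transcription factor of cell growth, was at 1.99 and 2.53 FPKM in Dgcr8 KO and 26.7 and 28.1 FPKM with miR-294 (difference 3.12, SE 0.19, adjusted p = 4.4e-05). Calca, the gene of the peptides calcitonin and CGRP, was at 2.68 and 2.19 FPKM in Dgcr8 KO and 48.7 and 47.96 FPKM with miR-294 (difference 3.85, SE 0.10, adjusted p = 4.7e-06). None of these 3 holds any word of the miR-294 seed match in its 3′ UTR. In each both miR-294 libraries were above both controls, which was a condition of their choice.

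Eras, a Ras-like GTPase of embryonic stem cells, was at 3.76 and 4.04 FPKM in Dgcr8 KO and 32.4 and 31.1 FPKM with miR-294 (difference 2.74, SE 0.09, adjusted p = 8.8e-06). Bmp4, a ligand of the BMP pathway, was at 0.808 and 0.740 FPKM in Dgcr8 KO and 10.7 and 9.84 FPKM with miR-294 (difference 2.67, SE 0.09, adjusted p = 8.8e-06). Dnmt3l, the cofactor of the DNA methyltransferases Dnmt3a and Dnmt3b, was at 75.1 and 75.2 FPKM in Dgcr8 KO and 432 and 435 FPKM with miR-294 (difference 2.51, SE 0.14, adjusted p = 3.6e-05). Absence of overlap was a condition of the choice of these 3 as well, and the 2 miR-294 libraries lay within a few percent of each other for Dnmt3l. Spink1, a secreted trypsin inhibitor, was listed at 0 and 0.138 FPKM in Dgcr8 KO and at 12.1 and 10.9 FPKM with miR-294 (difference 3.55, SE 0.17, adjusted p = 2.9e-05). Platr3, a long noncoding RNA of pluripotent cells (difference 2.67), Soga3 (2.65) and Pla2g1b, a secreted phospholipase (2.37), complete the 10 largest increases chosen in this way.

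By the same choice among called genes without overlap, the 10 largest decreases were Msln, Trim47, Mmp23, Irf2, Psmb8, Lrrc31, Zbp1, Erap1, Aldh1b1 and Plagl1. Msln, the cell-surface protein mesothelin, was at 78.7 and 63.7 FPKM in Dgcr8 KO and 9.19 and 9.12 FPKM with miR-294 (difference -2.82, SE 0.11, adjusted p = 1.7e-05). Trim47, a ubiquitin ligase, was at 18.2 and 12.2 FPKM in Dgcr8 KO and 1.24 and 1.26 FPKM with miR-294 (difference -2.82, SE 0.16, adjusted p = 4.3e-05), and Mmp23, a membrane-bound metalloprotease, was at 38.6 and 26.7 FPKM in Dgcr8 KO and 3.98 and 3.94 FPKM with miR-294 (difference -2.74, SE 0.21, adjusted p = 8.2e-05). Both miR-294 libraries were below both controls in all 10, which was a condition of their choice. Plagl1, an imprinted zinc finger transcription factor, was at 29.8 and 31.1 FPKM in Dgcr8 KO and 5.09 and 4.63 FPKM with miR-294 (difference -2.42, SE 0.08, adjusted p = 8.8e-06). Aldh1b1, a mitochondrial aldehyde dehydrogenase, differed by -2.50 and Lrrc31 by -2.56. Of these 10 genes, Irf2 and Erap1 hold an 8mer, Mmp23 and Lrrc31 a 7mer-m8, Aldh1b1 a 7mer-A1, and the other 5 none of the words.

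Dgcr8 itself, still transcribed in part in the knockout, was at 7.89 and 8.50 FPKM in Dgcr8 KO and 6.81 and 7.28 FPKM with miR-294 (difference -0.19, adjusted p = 0.14), which did not pass the test, and WT cells held 22.9 and 21.9 FPKM. Mbnl1 (chr3:60472830-60629750, plus strand) was at 8.003 and 9.42 FPKM in Dgcr8 KO and 5.17 and 4.92 FPKM with miR-294 (difference -0.68, SE 0.10, adjusted p = 0.0011), and Mbnl2 (chr14:120275669-120431697, plus strand) at 24.7 and 28.6 FPKM in Dgcr8 KO and 13.2 and 14.4 FPKM with miR-294 (difference -0.90, SE 0.12, adjusted p = 0.00084). Both fell without overlap of the groups, which 43.7% of all genes showed in that direction. In cells given siRNAs to these messages, Mbnl1 was at 6.84 and 6.76 FPKM and Mbnl2 at 11.2 and 14.3 FPKM. Mbnl1 was lower with miR-294 than with the siRNAs (difference -0.37, adjusted p = 0.016), while the difference of Mbnl2 did not pass the test (difference 0.11, adjusted p = 0.46). The 3′ UTR of Mbnl1 holds a single 7mer-A1, and Mbnl3 was below the level tested.

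Published targets of the ESCC microRNAs fell as a group: all 19 that were tested were called lower, against 29.5% of all genes, with a median of -1.09 against -0.06. After either median-of-ratios scaling or quantile normalization, 18 were called lower. The list was compiled from genes already known as targets, so its direction is not a finding of these data. Dkk1 was below the level tested. Against siMbnl1/2, 18 of the 19 were lower, the exception being Mbnl2, against 32.8% of all genes, with a median of -1.01 against -0.10. This second comparison shares the miR-294 libraries.

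The steepest fall among these targets was that of Irf2 (chr8:46739732-46847458, plus strand), a repressor of interferon-responsive transcription, at 9.76 and 9.02 FPKM in Dgcr8 KO and 0.623 and 0.614 FPKM with miR-294 (difference -2.68, SE 0.15, adjusted p = 4.3e-05). Lefty1 and Lefty2, secreted antagonists of Nodal, were at 111 and 83.4 FPKM in Dgcr8 KO and 24.96 and 22.8 FPKM with miR-294 and at 23.5 and 22.02 FPKM in Dgcr8 KO and 5.31 and 5.28 FPKM with miR-294. Their differences were -1.97 (SE 0.14) and -1.92 (SE 0.20), and as near-identical neighbours on chromosome 1 they may share reads. Cdkn1a (chr17:29090979-29100722, plus strand), the p21 inhibitor of Cdk2, was at 64.4 and 57.1 FPKM in Dgcr8 KO and 17.8 and 16.1 FPKM with miR-294 (difference -1.78, SE 0.08, adjusted p = 2.9e-05). The siMbnl1/2 libraries stood higher still, at 112 and 106 FPKM.

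Rbl2, a pocket protein that holds E2F factors in check, was at 9.36 and 8.56 FPKM in Dgcr8 KO and 2.36 and 2.34 FPKM with miR-294 (difference -1.57, SE 0.13, adjusted p = 9.6e-05). Lats2, a kinase of the Hippo pathway, was at 10.1 and 9.38 FPKM in Dgcr8 KO and 2.98 and 2.74 FPKM with miR-294 (difference -1.47, SE 0.10, adjusted p = 5.9e-05). Tgfbr2, a TGF-beta receptor, was at 3.15 and 2.55 FPKM in Dgcr8 KO and 0.585 and 0.539 FPKM with miR-294 (difference -1.30, SE 0.14, adjusted p = 0.00031). All 3 hold an 8mer, and none showed overlap between the groups, as for 43.7% of all genes in the direction of lower. Casp2 and Ei24, which promote cell death, differed by -1.22 and -0.84, the methyl-CpG binding protein Mbd2 by -1.21, the histone methyltransferase Ash1l by -1.09 and the kinase Akt1 by -0.90. Smaller decreases were those of Arid4b (-0.45), Rhoc (-0.43), Wee1 (-0.42), Fbxl5 (-0.37) and Rela (-0.24). Of the 19, 10 hold an 8mer, 8 a 7mer and Rela no match. The calls of Rhoc and Rela did not hold throughout: Rhoc had an adjusted p of 0.12 without the first Dgcr8 KO library, 0.11 without the first miR-294 library and 0.063 without the second, and Rela one of 0.48 after quantile normalization.

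**Figure D2:**
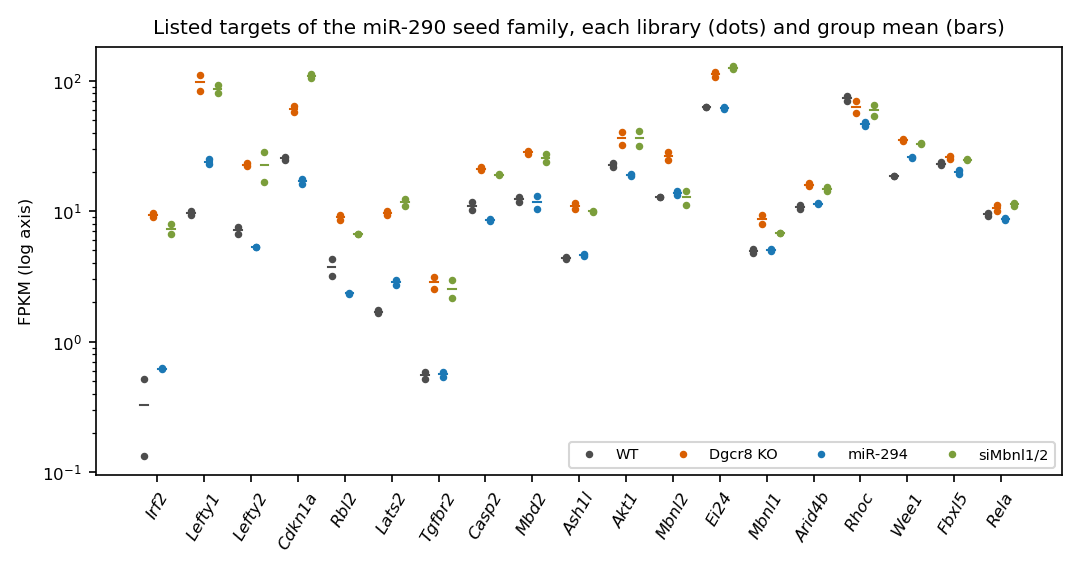
FPKM on a log axis for the 19 listed targets in each of the 8 libraries (dots, coloured by condition), with bars at the group means, ordered by the difference between miR-294 and Dgcr8 KO. The blue miR-294 dots lie below both orange Dgcr8 KO dots in all 19 genes, from Irf2 at the left (0.623 and 0.614 against 9.76 and 9.02 FPKM) to Rela at the right. Of all genes tested, 43.7% were lower without overlap in the same way.

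Over all 11392 tested genes with an annotated 3′ UTR, 31.2% were called lower and 23.6% higher, with a median difference of -0.07. Genes with an 8mer had a median of -0.38 (407 genes), those with a 7mer-m8 -0.21 (1586), those with a 7mer-A1 -0.21 (372), those with a 6mer -0.15 (1389) and those with none of these words -0.01 (7638). The share called lower was 56.0% with an 8mer, 42.7% with a 7mer-m8, 43.8% with a 7mer-A1, 36.8% with a 6mer and 25.8% with none. The share called higher ran the other way, from 10.1% with an 8mer to 27.9% with none. No test was made between these classes. After quantile normalization, which shifts all genes, the medians were -0.25 with an 8mer and 0.06 with none.

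**Figure D3:**
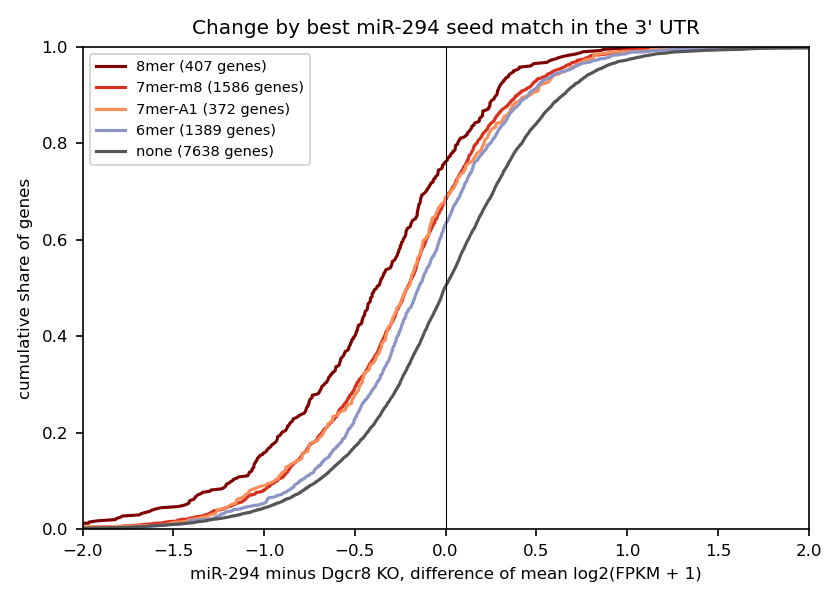
Cumulative share of genes (vertical axis) at or below each difference of mean log2(FPKM + 1) between miR-294 and Dgcr8 KO (horizontal axis, shown from -2 to 2), for the 5 classes of best seed match in the 3′ UTR. The 8mer curve lies farthest to the left (median -0.38), both 7mer curves run close together (-0.21) and the curve of genes without a match crosses the midpoint at -0.01.

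Genes with an 8mer lay below genes without a match among genes with short, middle and long 3′ UTRs, and an 8mer was more often found in a long 3′ UTR. Genes with an 8mer had a median 3′ UTR of 2744 bases and genes without a match one of 765. Among the 3798 genes with the longest 3′ UTRs the medians were -0.37 with an 8mer (286 genes) and -0.10 with none (1493). Among the 3795 genes of middle length they were -0.36 (97) and -0.04 (2676), and among the 3799 with the shortest -0.72, over only 24 genes, and 0.08 (3469). By level, the median was -0.43 with an 8mer (147 genes) and -0.14 with none (2458) in the tertile with the lowest FPKM, -0.45 (175) and -0.07 (2382) in the middle tertile, and -0.05 (85) and 0.17 (2798) in the highest. After quantile normalization the medians of the highest tertile were -0.15 and 0.06.

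The base that follows the 7-base match also went with the size of the difference. Among genes with a single AGCACTT, those in which it was followed by A, which makes the 8mer, had a median of -0.40 (275 genes), those followed by T -0.27 (505), those followed by C -0.17 (240) and those followed by G -0.17 (592). This split was chosen after the values of the classes were seen. By the number of 7mer or 8mer words in the 3′ UTR, the median was -0.02 with 0 words, -0.22 with 1, -0.26 with 2 and -0.30 with 3 or more. The median 3′ UTR lengths of these groups were 893, 2143, 3264 and 5302 bases. Number of words and length were not separated. An 8mer in the coding sequence alone, with no word in the 3′ UTR, went with a median of -0.13 (151 genes), against 0.04 for genes with a match in neither (5675).

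An 8mer for let-7a-5p (CTACCTCA) went with a median of -0.14 and a share of 35.2% lower over 412 genes, against -0.04 and 29.3% for genes with no let-7 word (8436). Among genes with no miR-294 word it went with -0.10 and 28.1% (203 genes), against 0.01 and 24.99% with no let-7 word either (6158). Here too lengths differed. The median 3′ UTR was 2453 bases with the let-7 8mer and 861 with no let-7 word. Among genes with no miR-294 word these were 1697 and 628.5 bases. Read from the side of the changed genes, an 8mer for miR-294 was present in 3.57% of all tested 3′ UTRs, in 6.42% of those of genes called lower and in 10.1% of those at least 2-fold lower. It was present in 1.52% of those of genes called higher and in 1 of 239 at least 2-fold higher. Of the 632 genes with a 3′ UTR that were called and at least 2-fold lower (5.55% of those tested), 334 had none of the words.

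Measured against siMbnl1/2, which also had a small RNA transfected, the 8mer class was again the lowest and the class without a match the highest. The medians were -0.40 with an 8mer, -0.24 with a 7mer-m8, -0.24 with a 7mer-A1, -0.17 with a 6mer and -0.05 with none, over 11392 genes with a median of -0.11. In that comparison 2710 genes (21.4%) were called higher and 4147 (32.8%) lower over all genes tested, 54.3% together. After quantile normalization these counts were 3329 and 3135, and the median moved from -0.10 to 0.02.

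Besides the listed targets, genes with an 8mer that fell most were Erap1, Oasl2, Rrm2b, Lamp2, Syde1, Cd109 and Zfp367. Rrm2b, a p53-induced subunit of ribonucleotide reductase, was at 14.3 and 13.2 FPKM in Dgcr8 KO and 2.18 and 2.38 FPKM with miR-294 (difference -2.17, SE 0.13, adjusted p = 4.4e-05). Lamp2, a major protein of the lysosomal membrane, was at 63.9 and 67.3 FPKM in Dgcr8 KO and 16.3 and 15.9 FPKM with miR-294 (difference -1.96, SE 0.08, adjusted p = 1.7e-05). Cd109, a surface protein that binds TGF-beta, was at 4.62 and 4.65 FPKM in Dgcr8 KO and 0.605 and 0.602 FPKM with miR-294 (difference -1.81, SE 0.13, adjusted p = 6.1e-05). The groups were well apart in all 3. Syde1 differed by -1.82 and Zfp367, a zinc finger transcription factor, by -1.79. The 3 genes with an 8mer that rose most were Ptp4a1, Stx8 and Nufip2. Ptp4a1, a phosphatase of the cell membrane, was at 12.3 and 16.2 FPKM in Dgcr8 KO and 73.4 and 74.5 FPKM with miR-294 (difference 2.31, SE 0.45, adjusted p = 0.009). The siMbnl1/2 libraries differed widely for this gene, at 14.2 and 35.6 FPKM. Stx8, a protein of membrane fusion, differed by 0.98, and Nufip2 by 0.87 (adjusted p = 0.00016).

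The counts of gene lists that follow compare with 23.2% of all genes higher and 29.5% lower than in Dgcr8 KO, around a median of -0.06, and with 21.4% higher and 32.8% lower than with siMbnl1/2, around a median of -0.10. Both comparisons share the miR-294 libraries. The percentages called also differ with level. Among genes with a 3′ UTR but no seed word, 43.7% rose against Dgcr8 KO and 17.6% fell in the tertile with the highest FPKM. In the lowest tertile 16.6% rose and 31.2% fell, and the lists were not matched for level. All lists and their members were chosen with earlier results of these data known. Cell cycle inhibitors were lower almost throughout. Of 10 genes of CDK inhibitors and pocket proteins, 9 fell (29.5% over all genes) and 1 rose, with a median of -1.01, and 8 fell under either scaling. Compared with siMbnl1/2, 9 were lower and 1 higher, with a median of -1.05. Cdkn1b, the p27 inhibitor, was at 25.7 and 31.9 FPKM in Dgcr8 KO and 13.5 and 13.3 FPKM with miR-294 (difference -1.04, SE 0.10, adjusted p = 0.00021), and Rb1, the retinoblastoma protein, at 10.5 and 11.6 FPKM in Dgcr8 KO and 5.36 and 4.49 FPKM with miR-294 (difference -1.02, SE 0.10, adjusted p = 0.00023). Cdkn2a, whose locus encodes p16 and p19, was at 46.1 and 38.9 FPKM in Dgcr8 KO and 22.01 and 19.7 FPKM with miR-294 (difference -0.99, SE 0.15, adjusted p = 0.0013). Cdkn1b and Cdkn2a hold none of the words and Rb1 a 6mer. The pocket protein Rbl1 (-0.97) and the inhibitors Cdkn2c (-1.11), Cdkn2d (-0.69) and Cdkn2b (-0.46) fell too. The exception was Cdkn1c, an imprinted inhibitor also called p57, at 6.35 and 6.12 FPKM in Dgcr8 KO and 14.6 and 14.2 FPKM with miR-294 (difference 1.09, SE 0.10, adjusted p = 0.00017).

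Listed regulators of G1/S, which include the repressor E2f4, were split. Of 20 cyclins, kinases and E2F factors, 5 rose (23.2% over all genes) and 9 fell (29.5%), with a median of -0.20, and without the second miR-294 library 3 rose and 5 fell. The sign of the median depended on the control: relative to siMbnl1/2, 6 were higher and 6 lower, with a median of 0.13. Ccne1, cyclin E1, was at 47.2 and 45.3 FPKM in Dgcr8 KO and 109 and 104 FPKM with miR-294 (difference 1.19, SE 0.07, adjusted p = 3.9e-05) and the repressor E2f4 at 48.02 and 44.3 FPKM in Dgcr8 KO and 86.7 and 88.3 FPKM with miR-294 (difference 0.91, SE 0.07, adjusted p = 8.1e-05). Both rose. Cyclin D1 (Ccnd1, -0.75), E2f7 (-0.77), Cdk6 (-0.57) and E2f1 (-0.57) fell, of which E2f7 and Cdk6 hold an 8mer. Of 31 DNA replication genes, 14 rose and 3 fell, with a median of 0.17. After quantile normalization 9 rose and 6 fell, and relative to siMbnl1/2 20 were higher and 2 lower (median 0.35). The origin protein Orc1 (0.82), the uracil glycosylase Ung (0.72) and the helicase subunit Mcm5 (0.68) rose most.

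In the Myc network, 5 of 12 genes rose and 4 fell, with a median of 0.02 that changed sign when single libraries were left out (-0.02 to 0.07). In the comparison with siMbnl1/2, 5 were higher and 5 lower (median 0.02). Beside Myc, the paralogs Mycl (1.22) and Mycn (0.54) rose. Without the second Dgcr8 KO library, or either miR-294 library, 3 genes were called higher. The antagonists that compete for the partner Max fell: Mxd3 was at 12.5 and 8.52 FPKM in Dgcr8 KO and 4.05 and 4.11 FPKM with miR-294 (difference -1.16, SE 0.20, adjusted p = 0.0025), and Mxi1 differed by -0.69, Mxd4 by -0.61 and Mnt by -0.35. Max itself missed the threshold (0.17, adjusted p = 0.07). Mxd3, Mxi1 and Mnt hold a 7mer-m8. In all, 6 of the 12 genes hold a 7mer or 8mer, and the 1 with an 8mer was not called lower. Among Lin28 and oncofetal let-7 targets, 4 of 12 rose and 6 fell, with a median of -0.19, and 3 fell after quantile normalization or without any one of the second Dgcr8 KO, first miR-294 or second miR-294 library. There were 4 higher and 4 lower relative to siMbnl1/2 (median -0.03). Lin28a (3.98), Igf2bp1 (0.66), Hmga1 (0.54) and Trim71 (0.46) rose, while Igf2bp3 (-0.97), Arid3a (-0.71) and Lin28b (-0.48) were among those that fell.

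Every listed gene of ribosome biogenesis rose. The 30 genes compare with 23.2% of all genes called higher, and their median was 0.77 against -0.06 over all genes. After quantile normalization 27 rose. None fell under either scaling. Nhp2, a protein of the RNAs that guide pseudouridylation, was at 99.4 and 91.1 FPKM in Dgcr8 KO and 212 and 222 FPKM with miR-294 (difference 1.18, SE 0.07, adjusted p = 4.6e-05), and the nucleolar helicase Ddx21 at 54.9 and 57.4 FPKM in Dgcr8 KO and 123 and 125 FPKM with miR-294 (difference 1.13, SE 0.08, adjusted p = 5.7e-05). Npm1, nucleophosmin, an abundant nucleolar protein, was at 1471 and 1566 FPKM in Dgcr8 KO and 2658 and 2742 FPKM with miR-294 (difference 0.83, SE 0.10, adjusted p = 0.0004). In these 3 genes both miR-294 libraries were above both controls, as in 35.1% of all genes. The smallest difference was that of Pes1 (0.33), and Ncl, nucleolin, rose by 0.77. Against siMbnl1/2 all 30 were higher, against 21.4% of all genes, with a median of 0.76.

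Genes of serine and one-carbon metabolism and of the amino acid response driven by Atf4 mostly rose. Of 22 tested, 19 rose, against 23.2% of all genes, and none fell, with a median of 0.67. Chac1, which breaks down glutathione, was at 8.55 and 7.37 FPKM in Dgcr8 KO and 27.7 and 28.2 FPKM with miR-294 (difference 1.69, SE 0.10, adjusted p = 4.6e-05), and Psph, which makes serine, at 51.4 and 42.9 FPKM in Dgcr8 KO and 109 and 114 FPKM with miR-294 (difference 1.23, SE 0.10, adjusted p = 0.00011). Atf4, a transcription factor of amino acid stress, was at 149 and 146 FPKM in Dgcr8 KO and 261 and 264 FPKM with miR-294 (difference 0.83, SE 0.08, adjusted p = 0.00016). Phgdh (0.94), Psat1 (0.83) and Mthfd2 (0.78) belong to the same routes. Aldh1l2 (-0.05), Mthfd1 (0.18) and Cbs (0.57) did not pass the test. Against siMbnl1/2, 19 were higher (21.4% over all genes) and none lower, with a median of 0.89.

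Of 23 glycolysis genes, 10 rose and 3 fell, with a median of 0.14 (0.02 after quantile normalization), and 11 were higher and 3 lower than with siMbnl1/2 (median 0.26). Pkm, pyruvate kinase, was at 742 and 633 FPKM in Dgcr8 KO and 1332 and 1326 FPKM with miR-294 (difference 0.95, SE 0.08, adjusted p = 0.00011), and the aldolase Aldoa at 495 and 430.0 FPKM in Dgcr8 KO and 886 and 891 FPKM with miR-294 (difference 0.94, SE 0.08, adjusted p = 0.00014). Hexokinase 1 (Hk1), which holds a 7mer-m8, went the other way, at 19.7 and 17.2 FPKM in Dgcr8 KO and 8.16 and 7.92 FPKM with miR-294 (difference -1.10, SE 0.17, adjusted p = 0.0014). The glucose transporter Slc2a1 (-0.00) did not pass the test. Cholesterol synthesis showed 3 genes higher and 3 lower of 23, in each direction a smaller share than over all genes. Its median was -0.06 and 0.01 after quantile normalization, with 5 then higher, and relative to siMbnl1/2 4 were higher and 2 lower (median -0.01). Ebp, a sterol isomerase, fell most (-1.37).

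**Figure D4:**
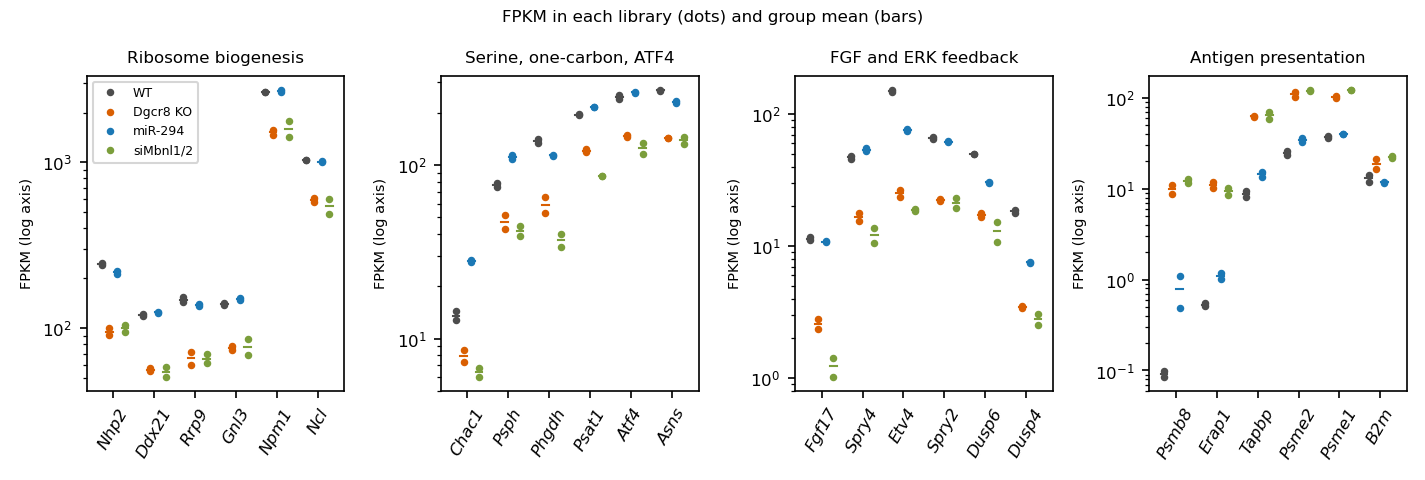
FPKM on log axes for 6 genes each of ribosome biogenesis, of serine, one-carbon and ATF4 genes, of FGF and ERK feedback and of antigen presentation, in each of the 8 libraries (dots) with bars at the group means; the genes were chosen from their lists after the values were seen. In the first 3 panels the blue miR-294 dots lie above the orange Dgcr8 KO and green siMbnl1/2 dots, as for Npm1 at 2658 and 2742 FPKM, and for antigen presentation they lie lower, as for Psmb8 at 0.492 and 1.09 FPKM.

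Most of the listed FGF ligands, receptors and ERK feedback genes rose. FGF ligands signal through ERK, whose targets include the Spry, Dusp and Etv genes. Of 15 tested, 9 rose (23.2% over all genes), 2 of them ligands, 1 fell (29.5%) and 5 did not pass the test, with a median of 0.76. Spry4, an inhibitor of ERK signalling, was at 15.6 and 17.8 FPKM in Dgcr8 KO and 52.1 and 55.1 FPKM with miR-294 (difference 1.63, SE 0.12, adjusted p = 7.7e-05), and the transcription factor Etv4 at 26.6 and 23.5 FPKM in Dgcr8 KO and 76.9 and 74.5 FPKM with miR-294 (difference 1.56, SE 0.08, adjusted p = 2.9e-05). The ligand Fgf17 was at 2.82 and 2.35 FPKM in Dgcr8 KO and 10.9 and 10.8 FPKM with miR-294 (difference 1.72, SE 0.12, adjusted p = 6.3e-05). The ligand Fgf15 (1.85), Spry2 (1.42), Dusp4 (0.94), Dusp6 (0.79), Spry1 (0.76) and Egr1 (0.59) rose as well. Fgf4, the main FGF ligand of these cells, did not pass the test (0.10, adjusted p = 0.17), whereas the receptor Fgfr1 fell (-0.53). Against siMbnl1/2, 10 were higher (21.4% over all genes) and 2 lower (32.8%), with a median of 0.82.

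In the Nodal and TGF-beta pathway, 4 of 22 genes rose, against 23.2% of all genes, and 11 fell, against 29.5%, with a median of -0.29. The counts relative to siMbnl1/2 were 5 higher and 10 lower (median -0.22). Among ligands, Nodal was at 25.4 and 22.4 FPKM in Dgcr8 KO and 35.7 and 37.4 FPKM with miR-294 (difference 0.60, SE 0.08, adjusted p = 0.00064), and Tgfb1 (0.69) and Gdf1 (0.60) also rose, while Gdf3 (-0.56) and Inhbb (-0.43) fell. Among receptors, Tgfbr2 (-1.30), Tgfbr1 (-0.88) and Acvr1b (-0.55) fell, and the coreceptor Tdgf1 rose (0.37). Of the signal carriers Smad3 fell (-0.45) and Smad2 (-0.11) and Smad4 (0.05) did not pass the test.

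In the BMP pathway the ligand and the receptors moved in opposite directions. Of 13 genes, 2 rose and 8 fell, with a median of -0.40 (2 and 6 relative to siMbnl1/2, median -0.49), and 5 fell without any one of the second Dgcr8 KO, first miR-294 or second miR-294 library. The ligand Bmp4 rose (2.67). The receptor Bmpr2 was at 5.45 and 6.51 FPKM in Dgcr8 KO and 2.40 and 2.57 FPKM with miR-294 (difference -0.998, SE 0.11, adjusted p = 0.00028), and Acvr1 (-0.92) and Bmpr1a (-0.64) also fell. The signal carriers Smad1 (-0.51) and Smad5 (-0.28) fell, the latter with an 8mer. Of the target genes of the Id family, Id3 rose (0.66), Id2 (-0.40) and Id4 (-0.61) fell and Id1 did not pass the test (0.28).

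The Hippo pathway, a kinase cascade that restrains the coactivators Yap1 and Wwtr1, had more members lower than higher. Of 21 genes, 3 rose and 14 fell, with a median of -0.58, and relative to siMbnl1/2 2 were higher and 13 lower (median -0.56). The kinases Lats2 (-1.47), Stk3 (-0.81) and Lats1 (-0.76) fell, and Stk4 rose (0.22). The scaffold proteins Wwc2 (-0.84), Mob1b (-0.62), Mob1a (-0.60) and Sav1 (-0.59) fell. Of the Tead factors that Yap1 binds, Tead4 was at 27.04 and 25.8 FPKM in Dgcr8 KO and 12.2 and 10.5 FPKM with miR-294 (difference -1.15, SE 0.13, adjusted p = 0.00039), and Tead3 (-0.71) and Tead1 (-0.55) fell. Yap1 itself fell by 0.18, and of 2 of its targets Cyr61 fell (-0.58) and Ctgf rose (0.43). Without the second Dgcr8 KO library, or either miR-294 library, 1 gene was called higher.

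The Wnt list was evenly divided, with 5 of 16 genes higher and 5 lower and a median of 0.02, which lay between -0.09 and 0.07 when single libraries were left out. Relative to siMbnl1/2 the counts were also 5 and 5 (median 0.01). Lef1, a DNA-binding partner of beta-catenin, was at 0.323 and 0.768 FPKM in Dgcr8 KO and 6.95 and 6.73 FPKM with miR-294 (difference 2.36, SE 0.17, adjusted p = 7.0e-05). Axin2, a target and inhibitor of the pathway, was at 0.568 and 0.970 FPKM in Dgcr8 KO and 7.17 and 6.99 FPKM with miR-294 (difference 2.2005, SE 0.19, adjusted p = 0.00013). The related factor Tcf7 rose (0.66) and Tcf7l2 fell (-1.30). The inhibitory kinase Gsk3b (-0.93) and the ubiquitin ligase Znrf3 (-0.58) fell, both with an 8mer. Beta-catenin itself, Ctnnb1, did not pass the test (0.11).

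Among 26 core and naive pluripotency genes, 14 rose and 9 fell, with a median of 0.30, which was 0.06 after quantile normalization, with 10 higher and 8 lower. Relative to siMbnl1/2 the median had the other sign, -0.05, with 11 higher and 8 lower. Pou5f1, the factor Oct4, was at 799 and 685 FPKM in Dgcr8 KO and 1060.2 and 1078 FPKM with miR-294 (difference 0.53, SE 0.08, adjusted p = 0.0016). Nanog went the other way, at 373 and 387 FPKM in Dgcr8 KO and 215 and 223 FPKM with miR-294 (difference -0.79, SE 0.05, adjusted p = 5.9e-05), and Sox2 was at 267 and 294 FPKM in Dgcr8 KO and 197 and 198 FPKM with miR-294 (difference -0.50, SE 0.07, adjusted p = 0.00077). The nuclear receptors Nr5a2 (1.27) and Nr0b1 (1.15) rose most, and Prdm14 (-0.74), Tfcp2l1 (-0.51) and Klf2 (-0.51) were among those that fell. Esrrb (-0.11) and Klf4 (-0.11) did not pass the test.

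Of 11 tested genes of the primed epiblast, the state that follows naive pluripotency, 6 rose and 4 fell, with a median of 0.79, and relative to siMbnl1/2 6 were higher and 4 lower (median 0.45). Lef1 (2.36) and Fgf15 (1.85) rose most, with Grhl2 (0.99), Pou3f1 (0.96), Sox3 (0.91) and Dusp6 (0.79). Otx2, an early factor of the primed state, was at 19.103 and 18.9 FPKM in Dgcr8 KO and 8.17 and 7.31 FPKM with miR-294 (difference -1.20, SE 0.09, adjusted p = 7.4e-05), and N-cadherin, Cdh2, at 5.78 and 6.16 FPKM in Dgcr8 KO and 1.72 and 1.97 FPKM with miR-294 (difference -1.29, SE 0.10, adjusted p = 9.6e-05). Fgf5, Cer1, Foxa2, Wnt8a and Nkx1-2 were below the level tested.

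Genes of DNA methylation went both ways. Of 16 genes, 7 rose and 3 fell, with a median of 0.09, and relative to siMbnl1/2 8 were higher and 4 lower (median 0.12). Dnmt3a was at 26.3 and 19.01 FPKM in Dgcr8 KO and 54.1 and 55.1 FPKM with miR-294 (difference 1.25, SE 0.18, adjusted p = 0.00099) and Dnmt3b at 34.4 and 32.9 FPKM in Dgcr8 KO and 79.3 and 78.9 FPKM with miR-294 (difference 1.21, SE 0.09, adjusted p = 7.9e-05). Uhrf1, which guides maintenance methylation, rose (0.50), and Dnmt1 missed the threshold (-0.25, adjusted p = 0.076). The demethylase Tet3 (-0.84) and the readers Mbd2 (-1.21) and Mbd1 (-0.77) fell.

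Germline genes that DNA methylation is known to silence were higher more often than not: 10 of 16 rose and 4 fell, with a median of 0.55. The balance was smaller relative to siMbnl1/2, with 7 higher, 5 lower and a median of 0.23. Rhox5, a homeobox gene, was at 19.7 and 16.00 FPKM in Dgcr8 KO and 73.8 and 75.8 FPKM with miR-294 (difference 2.01, SE 0.35, adjusted p = 0.0039). The meiosis gene Sycp1 (1.23) and the RNA-binding gene Dazl (0.88) rose. Rhox9 was at 29.1 and 27.3 FPKM in Dgcr8 KO and 7.32 and 7.23 FPKM with miR-294 (difference -1.82, SE 0.09, adjusted p = 2.9e-05) and Rhox6 differed by -1.22, both with a 7mer-m8. The Rhox genes are a cluster of related copies and may share reads.

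Imprinted genes went both ways, with 8 of 21 higher and 7 lower and a median of -0.07 that became 0.09 after quantile normalization. With siMbnl1/2 as the control, 7 were higher and 9 lower (median -0.03). Phlda2, a placental growth inhibitor, was at 13.9 and 10.01 FPKM in Dgcr8 KO and 62.1 and 62.8 FPKM with miR-294 (difference 2.31, SE 0.15, adjusted p = 5.2e-05), and Peg10 (1.28), Grb10 (1.13) and Snrpn (1.10) rose. Peg3 (-1.06) fell, as did 3 noncoding RNAs of the Dlk1 locus, Meg3 (-0.79), Rian (-0.66) and Mirg (-0.35), while Dlk1 itself rose (0.59).

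Antigen presentation was broadly lower. Of 16 tested genes, 13 fell and 1 rose, with a median of -0.91, and only Erap1 holds a 7mer or 8mer. Psmb8 (chr17:34197721-34201454, plus strand), a catalytic subunit of the immunoproteasome, was at 11.1 and 8.78 FPKM in Dgcr8 KO and 0.492 and 1.09 FPKM with miR-294 (difference -2.63, SE 0.18, adjusted p = 5.8e-05). Erap1 (chr13:74639872-74691875, plus strand), a peptidase that trims antigenic peptides, was at 10.3 and 11.8 FPKM in Dgcr8 KO and 1.17 and 1.004 FPKM with miR-294 (difference -2.52, SE 0.12, adjusted p = 2.9e-05), and Tapbp, tapasin, which loads peptides onto class I molecules, at 63.7 and 62.3 FPKM in Dgcr8 KO and 15.2 and 13.5 FPKM with miR-294 (difference -2.06, SE 0.11, adjusted p = 3.2e-05). The groups lay far apart in each. The proteasome activators Psme2 (-1.64) and Psme1 (-1.32), the transporters Tap2 (-1.34) and Tap1 (-1.19), and B2m (-0.63), the light chain of class I molecules, fell. The class I genes H2-D1 (-0.47) and H2-K1 (-0.33), which may share reads, and the chaperone Canx (-0.16) fell less. Against siMbnl1/2, 14 were lower and none higher, with a median of -1.23.

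Interferon and nucleic acid sensing genes showed 13 of 21 lower and 2 higher, with a median of -1.07. Zbp1, a sensor of left-handed nucleic acids, was at 17.7 and 15.5 FPKM in Dgcr8 KO and 2.17 and 1.93 FPKM with miR-294 (difference -2.53, SE 0.10, adjusted p = 1.9e-05), and Oasl2 at 11.4 and 10.004 FPKM in Dgcr8 KO and 1.42 and 1.01 FPKM with miR-294 (difference -2.41, SE 0.17, adjusted p = 6.9e-05). Ifitm1, a membrane protein that restricts viruses, fell from a high level, at 926 and 684 FPKM in Dgcr8 KO and 183 and 191 FPKM with miR-294 (difference -2.08, SE 0.15, adjusted p = 6.6e-05). The DNA sensor cGAS (Mb21d1, -1.44, with an 8mer), the transcription factors Irf1 (-1.43) and Irf9 (-1.20), and the RNA-dependent kinase Eif2ak2 (-1.07) fell as well. The RNA sensor RIG-I (Ddx58) went against them, at 14.99 and 16.5 FPKM in Dgcr8 KO and 29.98 and 31.4 FPKM with miR-294 (difference 0.92, SE 0.08, adjusted p = 0.00014). Oas1a, which holds an 8mer, rose by 0.36, and 9 listed genes, among them Ifit1 and Mx1, were below the level tested. Against siMbnl1/2, 14 were lower and 1 higher, with a median of -0.95.

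Of 22 epithelial junction and keratin genes, 11 fell and 3 rose, with a median of -0.36, and relative to siMbnl1/2 12 were lower and 3 higher (median -0.49). E-cadherin, Cdh1, was at 96.7 and 93.4 FPKM in Dgcr8 KO and 60.2 and 58.1 FPKM with miR-294 (difference -0.68, SE 0.06, adjusted p = 0.00015). The claudins Cldn3 (-1.54) and Cldn7 (-1.39) and desmoplakin, Dsp (-1.45), fell most, whereas Epcam (0.09) did not pass the test. Of 20 mesenchymal and actin genes, 8 fell (29.5% over all genes) and 1 rose (23.2%), with a median of -0.21, and 5 fell without the first Dgcr8 KO or the first miR-294 library. The list stood lower relative to siMbnl1/2, with 13 lower (32.8% over all genes), 1 higher and a median of -0.61. Rhob, a small GTPase, was at 26.6 and 27.3 FPKM in Dgcr8 KO and 9.90 and 9.65 FPKM with miR-294 (difference -1.38, SE 0.09, adjusted p = 6.0e-05), and vimentin, Vim, which holds an 8mer, at 243 and 207 FPKM in Dgcr8 KO and 101 and 94.3 FPKM with miR-294 (difference -1.19, SE 0.12, adjusted p = 0.0002). The epithelial and the mesenchymal cadherin thus both fell (Cdh1 -0.68, Cdh2 -1.29).

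Lysosomal genes showed 11 of 26 lower and 3 higher, with a median of -0.18, and 7 were lower without either miR-294 library. In the comparison with siMbnl1/2, 15 were lower and 2 higher (median -0.36). Beside Lamp2, cathepsin A (Ctsa, -1.08), prosaposin (Psap, -0.84) and Lamp1 (-0.66) fell. Tfe3, a transcription factor of lysosomal genes, was at 22.6 and 22.5 FPKM in Dgcr8 KO and 44.4 and 44.96 FPKM with miR-294 (difference 0.96, SE 0.06, adjusted p = 4.9e-05). Of 22 genes of the Bcl2 family and caspases, 9 fell and 3 rose, with a median of -0.10, and relative to siMbnl1/2 11 were lower and 2 higher (median -0.30). Apaf1 (-0.67) and Pmaip1 (-0.81), which promote cell death, fell, and Birc5, survivin, rose (0.52).

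Of 24 targets of p53, 6 were higher (23.2% over all genes) and 8 lower (29.5%), with a median of -0.03, which became 0.03 and 0.05 under the scalings. Relative to siMbnl1/2 the list was lower, with 4 higher (21.4% over all genes), 14 lower (32.8%) and a median of -0.49. Without the second miR-294 library 3 were higher. Rrm2b and Cdkn1a, the 2 that fell most, hold an 8mer. Mdm2, a standard target, was at 51.5 and 50.2 FPKM in Dgcr8 KO and 54.1 and 48.7 FPKM with miR-294 and did not pass the test (0.01, adjusted p = 0.92), and Plk3 rose (0.91).

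Genes of the microRNA pathway itself were lower in 7 of 14 cases and higher in 3, with a median of -0.29 (6 and 2 relative to siMbnl1/2, median -0.26). Ago1, an Argonaute protein, was at 37.9 and 34.4 FPKM in Dgcr8 KO and 16.1 and 15.4 FPKM with miR-294 (difference -1.15, SE 0.08, adjusted p = 6.0e-05), and the helicase Mov10 at 167 and 137 FPKM in Dgcr8 KO and 65.9 and 61.4 FPKM with miR-294 (difference -1.24, SE 0.13, adjusted p = 0.00029). Tnrc6b (-0.76), Tnrc6a (-0.71), Dicer1 (-0.41) and Ago2 (-0.33) fell, and Tarbp2 (0.88), Xpo5 (0.36) and Drosha (0.30) rose. Of 31 genes of deadenylation and decay, 9 fell, a share near the 29.5% of all genes, and 4 rose, a smaller share than the 23.2% of all genes, with a median of -0.04 and of 0.02 after median-of-ratios scaling, under which 7 rose, and 2 rose without the second miR-294 library. There were 9 lower and 4 higher relative to siMbnl1/2 (median -0.03). The deadenylases Cnot6l, at 16.3 and 18.4 FPKM in Dgcr8 KO and 7.58 and 8.88 FPKM with miR-294 (difference -0.99, SE 0.11, adjusted p = 0.00032), and Cnot6 (-0.77) and the antiproliferative Btg1 (-0.86) hold an 8mer and fell. Of the 4 tested genes of this list with an 8mer, 3 were called lower. Tob1 fell most (-1.12), and the scaffold Cnot1 did not pass the test (-0.05).

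Of 14 splicing regulators of the muscleblind, Celf, Rbfox, Esrp and Ptbp families, 9 fell and 2 rose, with a median of -0.38, and 5 fell without the first miR-294 library. Relative to siMbnl1/2, whose siRNAs target Mbnl1 and Mbnl2, 9 were lower and 2 higher (median -0.37). Esrp2, a regulator of epithelial splicing, was at 5.55 and 4.60 FPKM in Dgcr8 KO and 1.75 and 1.96 FPKM with miR-294 (difference -1.09, SE 0.15, adjusted p = 0.00072). Beside Mbnl1 and Mbnl2, Ptbp3 (-0.58), Ptbp2 (-0.47), Rbfox2 (-0.33) and Qk (-0.31) fell, and Celf4 (1.04) and Ptbp1 (0.53) rose. Splicing itself cannot be read from values per gene.

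The markers of the labelled cell type were present in every library. Of 9 tested pluripotency markers 4 rose and 3 fell, and after quantile normalization 3 rose and 4 fell, with medians of -0.11 and -0.19. The counts relative to siMbnl1/2 were 4 higher and 3 lower (median -0.28). Of 7 tested neuroectoderm markers, 4 fell and 1 rose, with a median of -1.11 that was -0.93 after quantile normalization. Relative to siMbnl1/2 the counts were again 4 lower and 1 higher, with a median nearer to 0, -0.45. Olig2, with an 8mer, was at 14.2 and 12.1 FPKM in Dgcr8 KO and 3.48 and 3.48 FPKM with miR-294 (difference -1.65, SE 0.13, adjusted p = 9.5e-05), and Ncam1 (-1.30), Sox1 (-1.13) and Pax6 (-1.11) fell, while Tubb3 rose (0.57). Summed over 14 markers the level was 67.6 and 62.9 FPKM in Dgcr8 KO and 48.3 and 48.2 FPKM with miR-294. Whether a few neural cells or a low level in all cells carried these messages was not tested.

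Primitive endoderm markers summed to 286 and 259 FPKM in Dgcr8 KO and 188 and 185 FPKM with miR-294. Of 6 tested, 3 fell and 1 rose, with a median of -0.39 (4 and 1 relative to siMbnl1/2, median -0.55), and Sparc, a matrix protein, was at 229 and 209.6 FPKM in Dgcr8 KO and 129.6 and 128 FPKM with miR-294 (difference -0.76, SE 0.11, adjusted p = 0.0012). Of 18 listed, 12 were below the level tested, with Ttr and Afp at 0 in the 4 libraries. Of 10 trophoblast markers 3 rose and 3 fell, and the median of 0.01 lay between -0.03 and 0.05 without single libraries. With siMbnl1/2 as the control, 2 were higher and 4 lower (median -0.13). Tfap2c fell (-1.53) and Hand1 rose (1.10), Tpbpa was at 0, and the sum was 102 and 92.8 FPKM in Dgcr8 KO against 68.9 and 66.0 FPKM. Of 4 mesoderm markers 2 rose and 1 fell (median 0.29, and 0.23 with the same counts relative to siMbnl1/2), with Msgn1 at 0 and sums of 9.15 and 9.41 against 12.6 and 12.7 FPKM. Of 4 tested fibroblast markers 2 fell and 1 rose (median -0.37, and -0.50 with 3 lower and 1 higher relative to siMbnl1/2), led by Loxl1 (-1.25). The part of these cell types in the other results was not tested.

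Markers of the two-cell-like state, a rare state of embryonic stem cells that resembles the early embryo, were at low levels. Of 19 tested, 5 rose, a share near the 23.2% of all genes, and none fell, with a median of 0.49. Relative to siMbnl1/2 the direction was the opposite, with 6 lower, none higher and a median of -0.90. In a fit of only the 4 libraries compared, without the siMbnl1/2 and WT libraries, 16 rose, and leaving out single libraries left 2 or 3. Tmem92 was at 2.37 and 2.35 FPKM in Dgcr8 KO and 7.07 and 6.17 FPKM with miR-294 (difference 1.18, SE 0.22, adjusted p = 0.0034). The sum was 141 and 156 FPKM in Dgcr8 KO, 201 and 214 FPKM with miR-294 and 415 and 200.5 FPKM with siMbnl1/2. The Zscan4 and Usp17l genes in this list are near-identical copies, so their single values are uncertain.

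**Figure D5:**
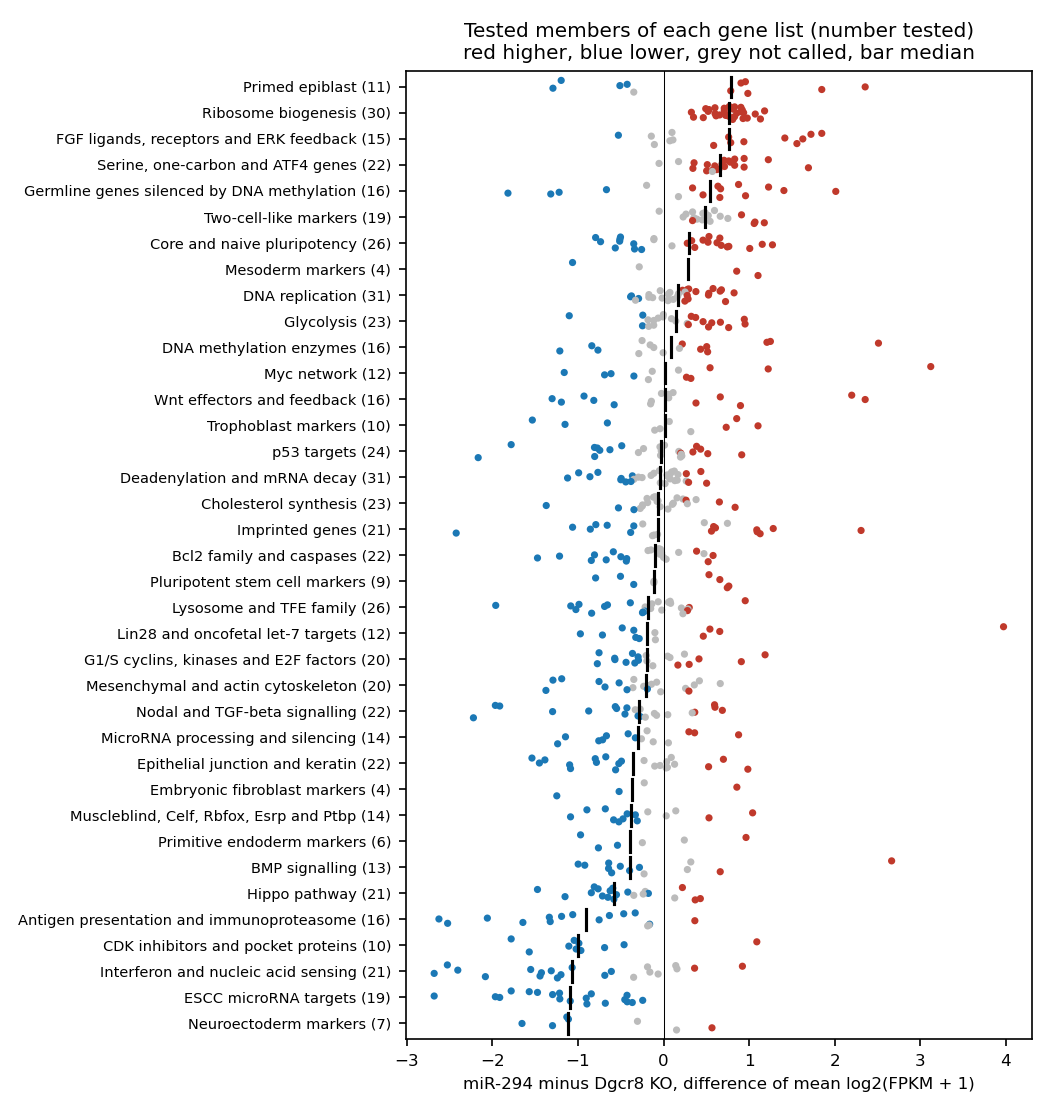
The difference of mean log2(FPKM + 1), miR-294 minus Dgcr8 KO, of every tested member of the 37 gene lists (1 dot each), ordered by the list's median (black bar), red for genes called higher, blue for lower and grey for not called. Ribosome biogenesis (median 0.77) is wholly red, while the ESCC microRNA targets (median -1.09) are wholly blue, and lists in the middle hold both colours.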

How the data were processed

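RNA was extracted with Trizol and made into libraries by a strand-keeping dUTP protocol, per the labels' protocols. The sample labels call it polyA RNA and the design text total RNA. The authors deposited FPKM per gene and library. STAR 2.5.0, Cufflinks 2.2.1 and the build mm10 are named per the submitters' processing notes, and the annotation release is not given in the sources used here. Because values are shares of a library, a few abundant transcripts that rise pull the rest down, and values of very short genes are unreliable.

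Genes with a mean of at least 1 FPKM over the 4 libraries compared were fitted as log2(FPKM + 1) of the deposited values with limma 3.58.1 in R 4.3.3 (statmod 1.5.0, trend and robust moderation). The fit had 4 group means over all 8 libraries, since 2 per group leave few degrees of freedom, and p-values are two-sided and Benjamini-Hochberg adjusted over all genes tested, with a threshold of 0.05. The script was tested on simulated data. No test can mark an outlying library within a pair, and the fit holds no replicate block, since the labels do not say that a number marks a shared day. Seed matches were counted in GENCODE M21, whose coordinates 43729 of 43792 entries of the same version share. Entries of another version, among them Erap1, Cdkn1a, Lats2 and Mbnl2, are outside that count and were matched by identifier without the version. No set of genes was tested as a set.

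The genes named are Dgcr8, Mbnl1 to Mbnl3, the 10 largest increases and decreases among called genes without overlap (predicted genes, clone names, small RNAs and pseudogenes left out), all tested ESCC targets, the 2 most changed members of each other list, and the 10 largest decreases and 3 largest increases among called genes with an 8mer. Other members named were chosen after their values were seen. A few genes that this rule names are not reported here. The members and the 37 lists were chosen with earlier results of these data known. Alternatives were another pseudocount (0.1), other filters, scalings, library weights, a replicate block, another 3′ UTR choice, a fit of the 4 libraries alone, and leaving out each library.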

Additional observations from a re-analysis of the deposited data

How the results depend on the processing

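The direction of all 100 named genes held under the alternatives run, and Rhoc, Rela and Tdpoz4 lost their calls under some of them, Tdpoz4 with an adjusted p of up to 0.14. With a pseudocount of 0.1, 463 genes were at least 2-fold higher and 1065 at least 2-fold lower, and with a filter at a mean of 5 FPKM the counts were 178 and 421. Leaving out single libraries gave 1780 to 2632 genes higher against siMbnl1/2, the lowest without the second miR-294 library. The samples share only a replicate number: deviations of same-numbered libraries correlated by 0.08 between Dgcr8 KO and miR-294, by -0.00 between miR-294 and siMbnl1/2, by 0.23 between Dgcr8 KO and WT and by -0.06 to 0.07 between the other pairs of groups. With the replicate block 2678 genes were higher and 3398 lower than in Dgcr8 KO, and 2451 higher and 3820 lower than with siMbnl1/2. Read depth is unknown, so small differences of low genes carry an unstated counting error.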
